A study of Mus musculus with 14 samples.

Results

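The interleukin 6 cytokine family was examined here as 10 genes measured by bulk RNA-seq in 2 mouse models of senescence. They were the ligand genes Il6, Lif, Il11, Osm, Clcf1 and Ctf1, the receptor chain genes Il6st, Lifr and Osmr, and the transcription factor gene Stat3. All 10 were found by gene symbol among the 54532 genes of the tables, each once, and the same Ensembl identifiers were read in both tissues.

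Senescence was induced by removing Terf2, the gene for the telomere-protecting shelterin protein TRF2. Senescent iMEFs were mouse embryonic fibroblasts of genotype Trf2F/F;Rosa-CreER, immortalized with SV40 large T antigen and collected 7 days after 4-hydroxytamoxifen (4HT), the drug that activates CreER. Control iMEFs had the same genotype and received vehicle (n = 3 each), so responses to the drug or to active Cre cannot be told apart from those to loss of Terf2. Senescent livers came from Trf2F/F;Rosa-mTmG mice and control livers from Rosa-mTmG mice (n = 4 each). Both received AAV8-Tbg-Cre by tail vein, a virus that expresses Cre from a promoter active in hepatocytes, and the senescent livers are labelled as taken at 6 weeks. Whole livers were sequenced, so liver cells that the promoter does not target also contributed RNA. The age of the mice, and whether the iMEF replicates were separate lines, were not given in the sources used here, so for iMEFs the p-values measure the spread between these cultures.

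Libraries held 15364450 to 20177401 reads in genes. Terf2 averaged 0.250 ± 0.0482 CPM (reads scaled to a common library size with TMM factors) in senescent iMEFs and 38.3 ± 0.775 CPM in control iMEFs (SD, n = 3 each), and 3.82 ± 1.12 CPM in senescent livers and 12.6 ± 1.35 CPM in control livers (SD, n = 4 each). Cdkn1a, which encodes the cell cycle inhibitor p21, was higher in both senescent groups, with log2 fold changes of 2.15 in iMEFs and 2.44 in livers (edgeR quasi-likelihood test, adjusted p = 8.88e-09 and 0.0293). Hepatocyte markers matched the tissue labels, since 7 of 8 had no read in iMEFs while their summed level was 89874 to 108501 CPM in senescent livers and 80762 to 92663 CPM in control livers. Senescent iMEF replicate 3 stood apart in its mitochondrial reads, 2.32% of all reads, against 0.599% to 0.853% in the other 5 iMEF libraries.

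Cytokines of this family share one signaling chain. Each ligand assembles a receptor complex around gp130, the product of Il6st. Interleukin 6 and interleukin 11 do so through their own non-signaling alpha receptors and a pair of gp130 chains. Leukemia inhibitory factor (LIF, from Lif) and cardiotrophin 1 (from Ctf1) pair gp130 with the LIF receptor chain, and mouse oncostatin M (from Osm) pairs it mainly with the oncostatin M receptor chain (from Osmr). Cardiotrophin-like cytokine factor 1, the product of Clcf1, signals through gp130 and the LIF receptor chain. JAK kinases bound to these chains phosphorylate STAT3, which induces Socs3, an inhibitor of the same pathway. In the liver the family drives the acute phase response, and interleukin 6 is a classical factor of the senescence-associated secretory phenotype.

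In iMEFs, 6 of the 8 members that could be tested changed with senescence, Lif and Clcf1 upward and Ctf1, Il6st, Lifr and Stat3 downward. In livers, 1 of 7 was called, which was Lif, with 122 reads over the senescent livers and 2 reads over the control livers. It passed the filter on low counts there only through the senescent livers. Il6 itself was near the detection limit in both models, with 1 to 14 reads in any iMEF library and 0 to 6 in any liver library. The shares of all tested genes called at an adjusted p under 0.05 were 39.8% in iMEFs and 0.343% in livers, so calls among the members must be read against very different backgrounds. In bulk samples, fewer cells of a type and less RNA per cell cannot be told apart.

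**Figure D1:**
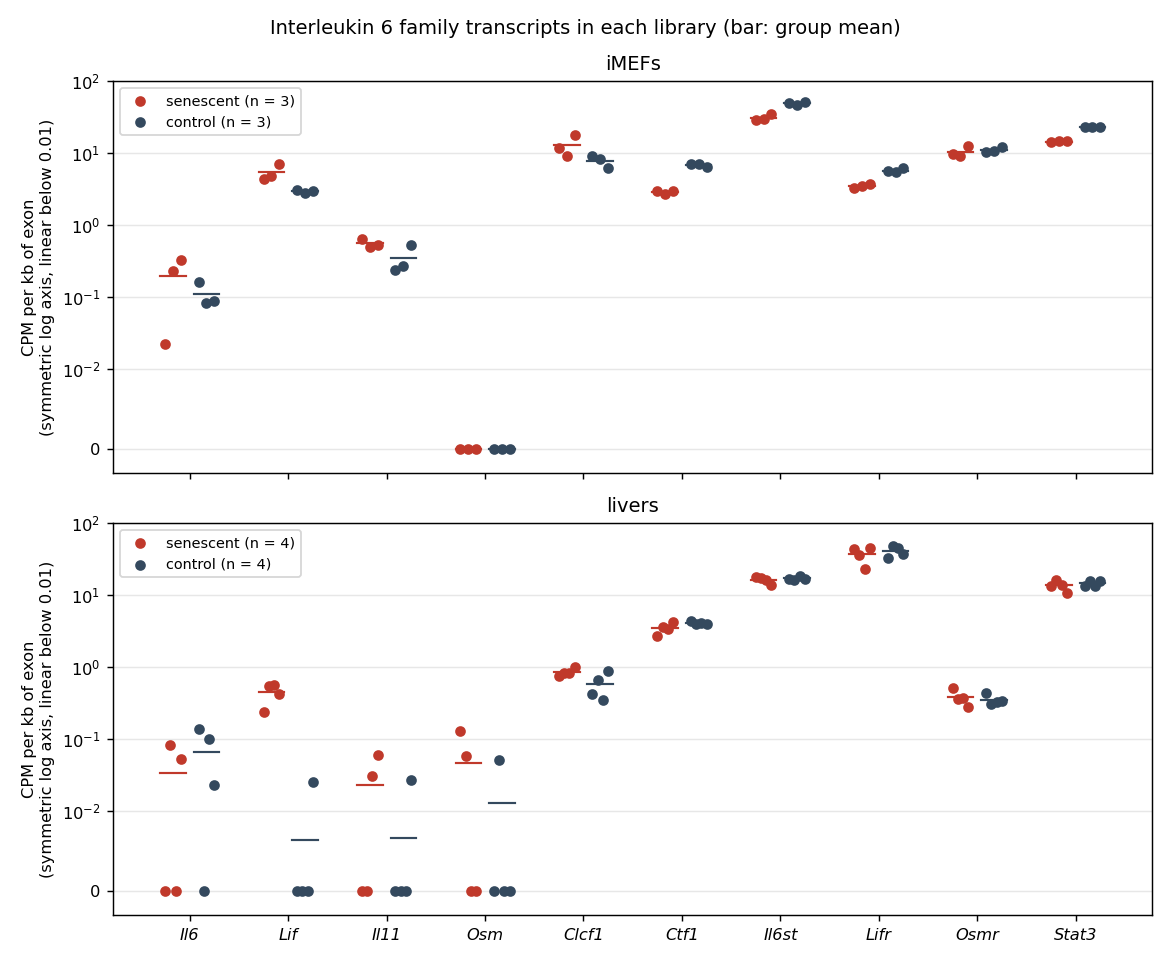
Level of each of the 10 genes in every library, in CPM per kb of exon on a symmetric log axis that is linear below 0.01, for iMEFs above and livers below, with senescent libraries in red to the left of control libraries in dark blue and a bar at each group mean. Osm sits at 0 in all 6 iMEF libraries, and Lif in livers is above 0.2 in all senescent libraries and at or below 0.0255 in the controls.

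Ranked by CPM per kb of exon, the scale on which levels can be compared between genes, Il6st led the family in iMEFs, at 31.0 ± 3.46 in senescent and 49.0 ± 2.10 in control cells (SD, n = 3 each). Stat3 came next at 14.4 ± 0.352 CPM per kb in senescent iMEFs and 23.0 ± 0.251 CPM per kb in control iMEFs. In senescent iMEFs, Stat3, Clcf1 and Osmr were neighbors whose libraries overlapped, and in control iMEFs only Clcf1 and Ctf1 overlapped as neighbors. Lif ranked 5 of 10 in senescent iMEFs and 7 of 10 in control iMEFs. At the low end in both groups were Il11, Il6 and Osm.

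Livers had a different order, with Lifr first at 37.1 ± 10.0 CPM per kb in senescent livers and 41.0 ± 7.31 CPM per kb in control livers (SD, n = 4 each). Il6st, Stat3 and Ctf1 followed in both groups, and the levels of Il6st and Stat3 overlapped in senescent livers. The lowest places were held by Osm, Il6 and Il11 in senescent livers, and by Il6, Osm, Il11 and Lif in control livers, with overlapping libraries throughout. Lif stood sixth in senescent livers, where it overlapped Osmr, and last in control livers.

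Lif (ENSMUSG00000034394) lies on chromosome 11 at 4257557 to 4272514 on the plus strand of GRCm38, 16530 bases from Osm (chromosome 11, 4236420 to 4241026), with no protein-coding gene between the pair. Stretches of promoter are shown for Lif, the member that rose in both tissues, and for the other ligands of the senescence secretome, Il6 and Il11, because each holds a motif of factors known to act on cytokine genes. They come from RefSeq windows on GRCm38.p6 reaching 250 bases before to 50 bases after a transcription start, and 8 of the 10 members had such a window. Capitals mark the AP-1 motif TGANTCA or, in the second stretch of Il6, the NF-kB motif, for which any base was allowed at the fifth letter. Both strands were searched.
Lif, chr11:4257328-4257387, plus strand: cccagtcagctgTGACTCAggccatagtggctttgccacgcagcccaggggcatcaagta
Il6, chr5:30012864-30012923, plus strand: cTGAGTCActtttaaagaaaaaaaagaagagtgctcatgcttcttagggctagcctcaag
Il6, chr5:30013034-30013093, plus strand: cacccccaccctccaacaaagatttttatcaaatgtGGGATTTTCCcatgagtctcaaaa
Il11, chr7:4778212-4778271, minus strand: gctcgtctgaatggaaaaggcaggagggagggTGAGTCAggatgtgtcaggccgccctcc
Counted from the transcription start, the AP-1 letters began at base -228 in Lif, at base -249 in Il6 and at base -98 from the second of the annotated starts of Il11. Osmr also held them, at bases 3 to 9 after its start. Among all 32851 windows of this length, 7.81% held the AP-1 motif and 0.411% the NF-kB motif, which among the members was found in Il6 alone. The STAT motif TTCNNNGAA (8.30% of windows) and the cyclic AMP response element TGACGTCA (1.79% of windows) were in none of the 10 windows of the 8 members. The window of the first annotated start of Il11, chr7:4782808-4783107, held none of the 4 motifs, and its bases are not shown. A match of letters is a description of the window and not evidence that a factor binds there.

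Among the ligands in iMEFs, Lif had 19.1, 20.7 and 31.0 CPM in senescent cells, against 13.4, 12.1 and 13.1 CPM in control cells. All 3 senescent cultures were above all 3 controls, and replicate 3 was the highest. The log2 fold change was 0.87 (SE 0.17), or 1.83-fold, with an adjusted p of 0.00130 by edgeR's quasi-likelihood test. Without senescent replicate 3, which had the high mitochondrial share, it was 0.64 and remained past the threshold.

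Clcf1 reached 44.7, 34.5 and 68.1 CPM in senescent iMEFs, against 34.4, 31.2 and 23.8 CPM in control iMEFs. The groups touched without overlapping, since the lowest senescent culture was 34.54 and the highest control 34.35 CPM. Its log2 fold change was 0.72 (SE 0.20, adjusted p = 0.0139, edgeR quasi-likelihood test). This value depended on single libraries, falling to 0.43 without senescent replicate 3, where it was still called, and to 0.58 without control replicate 3, where the adjusted p was 0.0739. DESeq2 gave an adjusted p of 0.0579. Clcf1 shares 311 exonic bases with an unnamed gene model on its own strand, so part of its reads may have been assigned elsewhere.

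Ctf1, the cardiotrophin gene, moved the other way. It had 5.47, 4.87 and 5.39 CPM in senescent iMEFs, against 12.8, 12.9 and 11.8 CPM in control iMEFs, so every senescent culture lay far below every control. With a log2 fold change of -1.25 (SE 0.13, adjusted p = 1.60e-05, edgeR quasi-likelihood test), or 0.421-fold, it was the most strongly changed member in these cells by size. Ctf1 and Ctf2 share 87 exonic bases on opposite strands, and whether counting used strand was not given in the sources used here.

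Il11 was expressed at a low level, 1.34, 1.04 and 1.09 CPM in senescent iMEFs, against 0.497, 0.555 and 1.10 CPM in control iMEFs. The highest control overlapped the senescent cultures, and the log2 fold change of 0.68 (95% confidence interval -0.14 to 1.51) did not pass the test (adjusted p = 0.174, edgeR quasi-likelihood test). Il6 had 1, 9 and 14 reads in senescent iMEFs, against 7, 4 and 4 reads in control iMEFs, too few for the filter on low counts. The ratio of its summed and depth-scaled reads was 1.74, with a 95% counting interval of 0.875 to 3.56, and with no filter its adjusted p was 0.483. Senescent replicate 1, with 1 read, was below every control, and the other senescent cultures were above every control. Leaving out senescent replicate 1 gave a log2 fold change of 1.34, which did not pass (adjusted p = 0.0941, edgeR quasi-likelihood test). Osm had no read in any of the 6 libraries, which allows a level of up to 0.0572 CPM over the senescent group and 0.0526 CPM over the control group, taking 3 reads as the limit and counting error alone.

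The shared receptor chain gene Il6st measured 320, 325 and 388 CPM in senescent iMEFs, against 556, 517 and 559 CPM in control iMEFs. No senescent culture reached the lowest control, and the log2 fold change was -0.66 (SE 0.09, adjusted p = 1.63e-04, edgeR quasi-likelihood test). Lifr, its partner chain for LIF and cardiotrophin, had 35.4, 37.3 and 39.7 CPM in senescent iMEFs, against 59.8, 58.1 and 66.4 CPM in control iMEFs. It fell by 0.71 on the log2 scale (SE 0.09, adjusted p = 6.30e-05, edgeR quasi-likelihood test), again with no overlap.

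Osmr, the other partner chain, did not pass the test. Its 116, 109 and 153 CPM in senescent iMEFs lay across the 124, 128 and 149 CPM of control iMEFs, and the log2 fold change was -0.08 (95% confidence interval -0.34 to 0.18, adjusted p = 0.628, edgeR quasi-likelihood test). Senescent replicate 3 set this value, since without it the log2 fold change was -0.23 with an adjusted p of 0.0411. Per kb of exon, Osmr made up 74.5%, 72.3% and 77.5% of the summed Osmr and Lifr level in senescent iMEFs, against 64.9%, 66.2% and 66.6% in control iMEFs. The share of Osmr was therefore higher in each senescent culture than in any control. Osmr and Lifr are neighbors on chromosome 15, at 6813577 to 6874969 on the minus strand and 7090614 to 7197489 on the plus strand, with 215644 bases and no protein-coding gene between them.

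**Figure D2:**
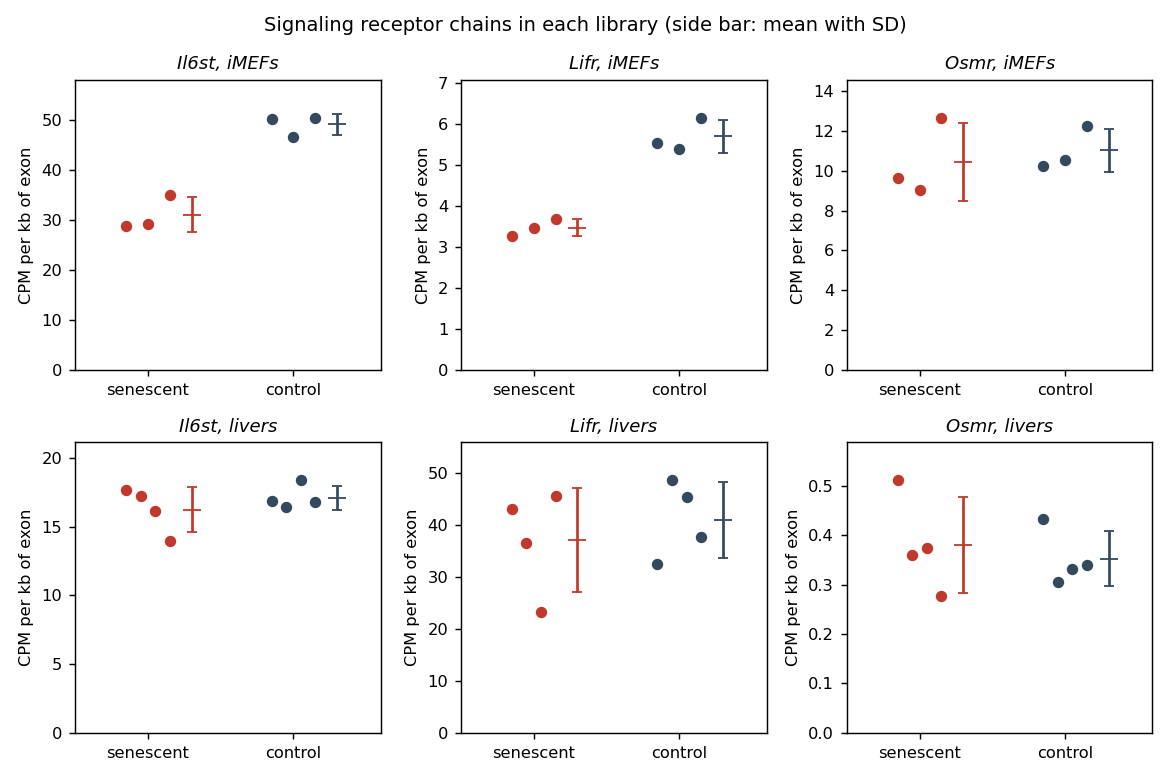
Il6st, Lifr and Osmr in every library, in CPM per kb of exon on linear axes that start at 0, for iMEFs in the upper row and livers in the lower row, with senescent libraries left of controls and the group mean with its SD beside the points. Il6st and Lifr are separated in iMEFs, whereas Osmr in iMEFs and all 3 chains in livers overlap.

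Stat3, which encodes the main transcription factor downstream of gp130, was the member with the smallest p in iMEFs. It had 134, 140 and 139 CPM in senescent iMEFs, against 219, 216 and 221 CPM in control iMEFs. The replicates were tight and well apart, giving a log2 fold change of -0.67 (SE 0.07, adjusted p = 1.52e-05, edgeR quasi-likelihood test). Its 3 closest genes by Pearson correlation of log2 CPM over the 6 iMEF libraries were Il1rn, Rnd3 and Lrrc17, each with r = 0.999, a likeness that 2 well-separated groups of libraries largely set.

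In all, 2 of the 10 members rose in senescent iMEFs (18.6% of all tested genes were called higher), 4 fell (21.2% were called lower), 2 did not pass the test and 2 were not tested. The 6 called members were also those whose groups did not overlap, which held for 50.6% of all tested genes (24.2% higher and 26.4% lower). Beside these changes, the fibroblast and stellate cell marker list was lower, with 6 of its 8 tested genes called lower and 1 higher and a summed level of 6138 to 7211 CPM in senescent iMEFs, against 16372 to 17437 CPM in control iMEFs. Its part in the members' changes was not tested. Of the 11 macrophage and Kupffer cell markers, 8 had no read in these cells, and the list summed to 6.27 to 8.20 CPM in senescent iMEFs and 4.04 to 4.69 CPM in control iMEFs, nearly all of it Cd68, the only one tested, which was called higher (log2 fold change 0.83, edgeR quasi-likelihood test, adjusted p = 0.00266). Of the 10 leukocyte markers, 5 had no read, and the list summed to 0.344 to 0.376 CPM in senescent iMEFs and 0.151 to 0.525 CPM in control iMEFs. Ptprc, the pan-leukocyte marker, had 0.107 to 0.305 CPM in senescent iMEFs, against no read in control iMEFs. The part of these markers in the members' changes was not tested.

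**Figure D3:**
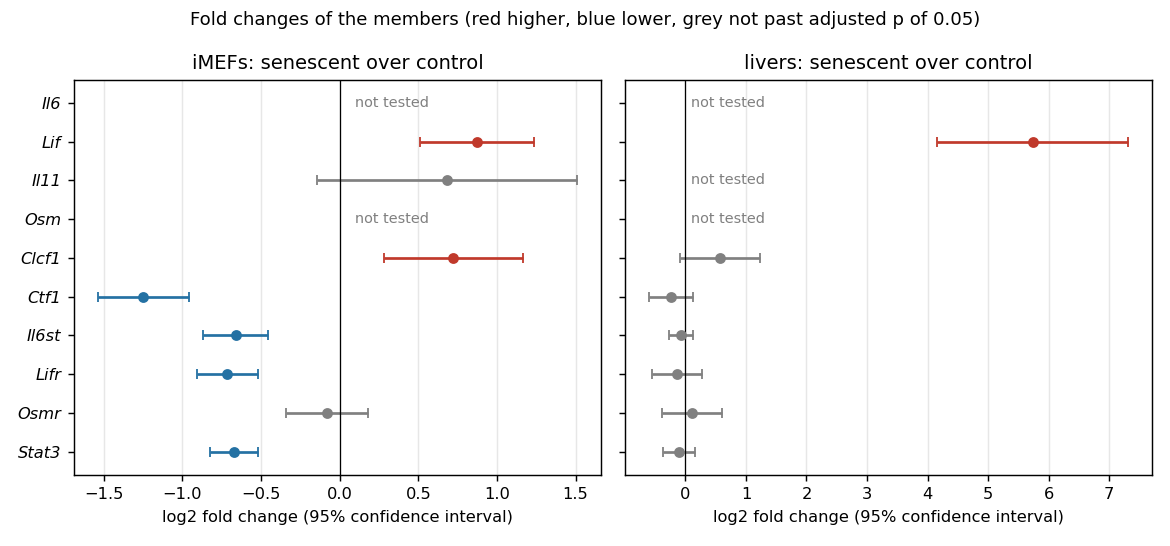
Log2 fold change of each tested member, senescent over control, with its 95% confidence interval, in iMEFs on the left and livers on the right, with different horizontal scales, higher calls in red, lower calls in blue and the others in grey. Ctf1, Il6st, Lifr and Stat3 lie below 0 in iMEFs, and in livers Lif alone lies away from 0, at 5.74.

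In livers, Lif had 18, 36, 39 and 29 reads in senescent animals, against 0, 0, 0 and 2 reads in control animals, or 1.04, 2.38, 2.48 and 1.83 CPM against 0, 0, 0 and 0.111 CPM. Every senescent liver was above every control liver, and 3 of the 4 controls had no read. The ratio of summed and depth-scaled reads was 66.2 (95% counting interval 17.9 to 553), and edgeR's quasi-likelihood test gave an adjusted p of 0.00311, rank 21 of 14270 tested genes. Its fitted log2 fold change of 5.74 (SE 0.72) depends on the small count added to each library, and was 3.79 with a prior count of 2, a setting chosen after seeing the data. Leaving out control replicate 4, which held both control reads, gave 7.997 (adjusted p = 0.0105). Lif passed the filter on low counts only through the senescent livers, so its p-value is descriptive.

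Even so, hepatic Lif was scarce. At 1.93 ± 0.661 CPM in senescent livers (SD, n = 4) it stayed below the 12.9 ± 0.678 CPM of control iMEFs (SD, n = 3), a comparison across separately scaled tables that is given as values only. The 3 genes most like Lif over the 8 liver libraries, by Pearson correlation of log2(CPM + 0.5), were Mgmt (r = 0.991), Gm45910 (r = 0.984) and Ccng1 (r = 0.984), and all 3 were themselves called higher in senescent livers (edgeR quasi-likelihood test, adjusted p = 0.00438, 0.00271 and 7.15e-05 in that order). Because Lif separates the groups, genes chosen for likeness to it largely must separate them too, so these calls are not separate evidence. Mgmt encodes a DNA repair methyltransferase and Ccng1 encodes cyclin G1, a p53 target. Their mean levels were 44.0 CPM for Mgmt in senescent livers and 25.0 CPM in control livers, and 119 CPM for Ccng1 in senescent livers and 42.6 CPM in control livers.

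**Figure D4:**
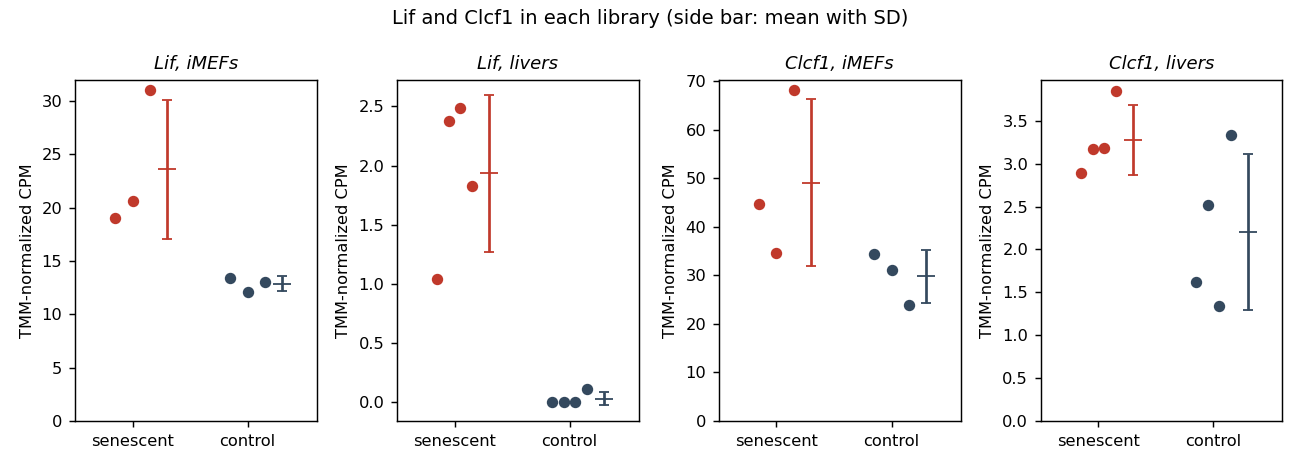
Lif and Clcf1 in every library of iMEFs and livers, in TMM-normalized CPM on linear axes, with senescent libraries left of controls and the group mean with its SD beside the points. Lif separates the groups in both tissues, and Clcf1 does so in iMEFs but overlaps in livers.

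The levels of other liver cell types were compared beside the Lif result. Summed endothelial markers were 378 to 429 CPM in senescent livers and 332 to 368 CPM in control livers, without overlap, and summed macrophage and Kupffer cell markers were 559 to 711 CPM in senescent livers and 322 to 689 CPM in control livers. Leukocyte markers summed to 113 to 152 CPM in senescent livers and 64.5 to 140 CPM in control livers. None of the 8 tested endothelial, 11 macrophage or 8 leukocyte markers was called, where 0.343% of all tested genes were. Their median log2 fold changes were 0.17, 0.34 and 0.14 in that order, against -0.004 over all tested genes. The endothelial markers Clec4g and Eng did not overlap between groups, which held for 4.51% of all tested genes. Clec4g had 58.2 to 80.7 CPM in senescent livers and 45.9 to 57.4 CPM in control livers. Eng had 98.3 to 103 CPM and 82.8 to 94.2 CPM in that order. Stellate cell and fibroblast markers summed to 398 to 478 CPM in senescent livers and 340 to 435 CPM in control livers, with none of 11 called, although Dcn did not overlap, at 189 to 210 CPM in senescent livers and 145 to 175 CPM in control livers. Cholangiocyte and epithelial markers summed to 567 to 735 CPM in senescent livers and 569 to 701 CPM in control livers. Most of that sum came from Krt8 (229 to 349 CPM in senescent and 255 to 341 CPM in control livers) and Krt18 (184 to 263 and 177 to 243 CPM). From this list 1 of 8, the cadherin gene Cdh1, was called lower (log2 fold change -1.18, adjusted p = 0.00542, edgeR quasi-likelihood test). The part of these cell types in the Lif result was not tested.

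The remaining ligands in livers did not pass the test or could not be tested. Clcf1 had 2.89, 3.17, 3.19 and 3.85 CPM in senescent livers, against 1.62, 2.52, 1.34 and 3.33 CPM in control livers. Most senescent livers were above most controls, but control replicate 4 reached into their range, and the log2 fold change of 0.57 (95% confidence interval -0.09 to 1.22) had an adjusted p of 0.706 by edgeR's quasi-likelihood test. Ctf1 had 4.97, 6.54, 6.18 and 7.77 CPM in senescent livers, against 8.08, 7.15, 7.42 and 7.27 CPM in control livers. Senescent replicate 4 overlapped the controls, and the log2 fold change was -0.23 (95% confidence interval -0.60 to 0.13, adjusted p = 0.797, edgeR quasi-likelihood test).

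Il6, the ligand that gives the family its name, had 0, 3, 0 and 2 reads in senescent livers, against 6, 0, 4 and 1 reads in control livers. The ratio of its summed and depth-scaled reads was 0.494 (95% counting interval 0.134 to 1.54), so neither direction was detectable at this depth. Osm, made mainly by leukocytes, had 5, 2, 0 and 0 reads in senescent livers, against 0, 2, 0 and 0 reads in control livers. Il11 had 3 reads over the senescent livers and 1 over the control livers. With no filter on low counts the adjusted p values were 0.874 for Il6, 0.768 for Osm and 0.835 for Il11 (edgeR quasi-likelihood test).

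The hepatic receptor chains and Stat3 showed no called change. Lifr had 464, 394, 250 and 491 CPM in senescent livers, against 349, 523, 488 and 406 CPM in control livers. Senescent replicate 3 was the lowest of all 8 livers, and the log2 fold change was -0.14 (95% confidence interval -0.56 to 0.27, adjusted p = 0.905, edgeR quasi-likelihood test), or 0.03 without that liver. Il6st had 196, 191, 179 and 155 CPM in senescent livers, against 187, 182, 204 and 187 CPM in control livers. These ranges overlapped, with a log2 fold change of -0.07 (95% confidence interval -0.27 to 0.13, adjusted p = 0.895, edgeR quasi-likelihood test).

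Osmr was low in liver, 3.35 to 6.19 CPM in senescent animals and 3.69 to 5.24 CPM in control animals, with a log2 fold change of 0.11 (95% confidence interval -0.38 to 0.61, adjusted p = 0.946, edgeR quasi-likelihood test). Its share of the summed Osmr and Lifr level per kb was 0.603% to 1.58% in senescent livers and 0.625% to 1.32% in control livers, so Lifr made up nearly all of it in every liver. Stat3 had 127, 155, 133 and 103 CPM in senescent livers, against 129, 151, 128 and 151 CPM in control livers. The senescent livers held both the highest and the lowest value, and the log2 fold change was -0.11 (95% confidence interval -0.37 to 0.15, adjusted p = 0.882, edgeR quasi-likelihood test).

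Counted over the family in livers, 1 of 10 members rose (0.308% of all tested genes were called higher), none fell (0.035% were called lower), 6 did not pass the test and 3 were not tested. Lif was also the only tested member whose liver groups did not overlap, which held for 4.51% of all tested genes (2.55% higher and 1.96% lower). By unadjusted p under 0.05, 1076 of the 14270 genes were below that value in livers, among them no member other than Lif.

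The response of each member was then compared between tissues in 1 model over all 14 libraries, in which 17.1% of the 11693 genes tested in both tissues differed in their response. That model used 1 estimate of spread per gene over both tissues. Its p-values therefore do not allow for spread that differs between iMEFs and livers. The test asked whether the fold change in livers minus that in iMEFs was different from 0, and 4 of 7 members passed. Lif differed by 4.96 (adjusted p = 1.86e-04), or by 3.32 with a prior count of 2, its fold change being larger in livers. Leaving out control liver replicate 4 made this difference 7.72. Lif entered this test only because the senescent livers carried it past the filter on low counts, so its p-value is descriptive. The fold change in livers rests on 2 reads over the control livers. By level, mean Lif was 1.93 CPM in senescent and 0.0277 CPM in control livers, and 23.6 CPM in senescent and 12.9 CPM in control iMEFs.

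Ctf1 differed by 1.01 (adjusted p = 0.00504), Il6st by 0.59 (adjusted p = 0.00605) and Stat3 by 0.56 (adjusted p = 0.0204), all by edgeR's quasi-likelihood test. For these 3 the sign means that the fall seen in senescent iMEFs was smaller in livers, where none of them was called. Lifr had a difference of similar size, 0.57, that did not pass (95% confidence interval 0.04 to 1.10 before adjustment, adjusted p = 0.132), but passed at 0.74 without senescent liver replicate 3 (adjusted p = 0.0116). The differences of Osmr (0.19, adjusted p = 0.617) and Clcf1 (-0.16, adjusted p = 0.817) did not pass.

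Genes that act with the members were followed in the same fits. Of all tested genes, 18.6% were called higher and 21.2% lower in iMEFs, and 0.308% higher and 0.035% lower in livers. Of 11 other ligands and receptors of the gp130 family, 3 could be tested in iMEFs. Il11ra1, the interleukin 11 alpha receptor, had 28.6 ± 3.99 CPM in senescent iMEFs and 60.3 ± 3.11 CPM in control iMEFs (log2 fold change -1.08, adjusted p = 7.64e-06, edgeR quasi-likelihood test).

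Il6ra, the interleukin 6 alpha receptor, was higher, at 27.5 ± 4.57 CPM in senescent iMEFs and 21.1 ± 0.932 CPM in control iMEFs (log2 fold change 0.38, adjusted p = 0.0248, edgeR quasi-likelihood test). That call was lost when any of the control cultures or senescent replicate 3 was left out (adjusted p 0.0557 to 0.0869). In livers 5 genes of the list could be tested, among them Il6ra and Il11ra1, and none passed.

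Within JAK-STAT signaling, 3 of 27 tested genes rose and 9 fell in senescent iMEFs, with a median log2 fold change of -0.09 against 0.00 over all tested genes. That count is near the share of all tested genes called in iMEFs, 39.8%. Socs3, the feedback inhibitor of gp130 signaling, fell with Stat3, with 18.0, 15.6 and 16.4 CPM in senescent iMEFs against 36.2, 34.7 and 32.5 CPM in control iMEFs (log2 fold change -1.05, adjusted p = 6.56e-06, edgeR quasi-likelihood test). The adaptor gene Gab1 (-0.70) and Stat5a (-0.46) also fell. The 3 that rose were other members of the SOCS family, Socs5 (0.40), Socs6 (0.37) and Socs7 (0.38). In livers none of 27 passed, the smallest p being that of the phosphatase gene Ptpn6 (log2 fold change 0.31, adjusted p = 0.622, edgeR quasi-likelihood test), and Socs3 had 6.30 to 10.5 CPM in senescent animals and 3.85 to 12.2 CPM in control animals.

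Among 23 genes known as STAT3 targets, 7 rose and 10 fell in senescent iMEFs, and 6 did not pass, where 39.8% of all tested genes were called. Those that rose included Myc (1.46) and Ccnd1 (1.02), which drive proliferation, the adhesion molecule gene Icam1 (1.19) and the anti-apoptotic gene Bcl2l1 (0.53), and also Bcl6 (0.61), Il4ra (0.42) and Birc5 (0.36). Those that fell included the immediate early genes Fos (-1.52) and Junb (-0.85), the acute phase regulator gene Cebpb (-1.03) and Socs3, all values being log2 fold changes. The list thus had no common direction, with a median of -0.08. In livers none of its 22 tested genes passed, and the median was 0.02. Bcl2l1 had the smallest p of the list there, with a log2 fold change of 0.29 (adjusted p = 0.461, edgeR quasi-likelihood test).

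Hepatic acute phase genes, the classical output of interleukin 6 on hepatocytes, gave 1 call among 28 tested genes in livers, where 0.343% of all tested genes were called. Serpina3n, a secreted protease inhibitor, averaged 600.1 CPM in senescent livers and 325 CPM in control livers (log2 fold change 0.89, adjusted p = 0.0115, edgeR quasi-likelihood test). Without control replicate 2 its adjusted p was 0.0516 and no gene of the list was called. The count was 2 without senescent replicate 3, 3 with no filter on low counts and 0 at a threshold of 0.01. Saa1, a serum amyloid gene, averaged 39.2 CPM in senescent livers and 13.4 CPM in control livers, and its log2 fold change of 1.55 had an adjusted p of 0.276. The median over the list was 0.05 in livers.

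In iMEFs, 7 acute phase genes could be tested, of which Il1rn (-2.21) and Lbp (-1.96) fell and the zinc transporter gene Slc39a14 (0.43) rose. The counts of this list and the next are near the share of all tested genes called in iMEFs, 39.8%. Il1rn encodes the interleukin 1 receptor antagonist, with 22.0 CPM in senescent iMEFs and 102 CPM in control iMEFs. Of 13 tested genes that act upstream of Il6, 5 fell in senescent iMEFs, among them the interleukin 1 receptor gene Il1r1 (-0.86), the mRNA decay factor gene Zfp36 (-0.83), the tumor necrosis factor receptor gene Tnfrsf1a (-0.60) and the NF-kB subunit gene Relb (-0.48). Nfkbiz (0.75), whose product is needed for Il6 induction in mouse macrophages, was the only one of the 13 that rose. None of 15 passed in livers, where Tnfrsf1a had the smallest p (log2 fold change 0.28, adjusted p = 0.377, edgeR quasi-likelihood test) and the cytokine gene Il1b averaged 6.18 CPM in senescent and 3.55 CPM in control animals (adjusted p = 0.610).

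**Figure D5:**
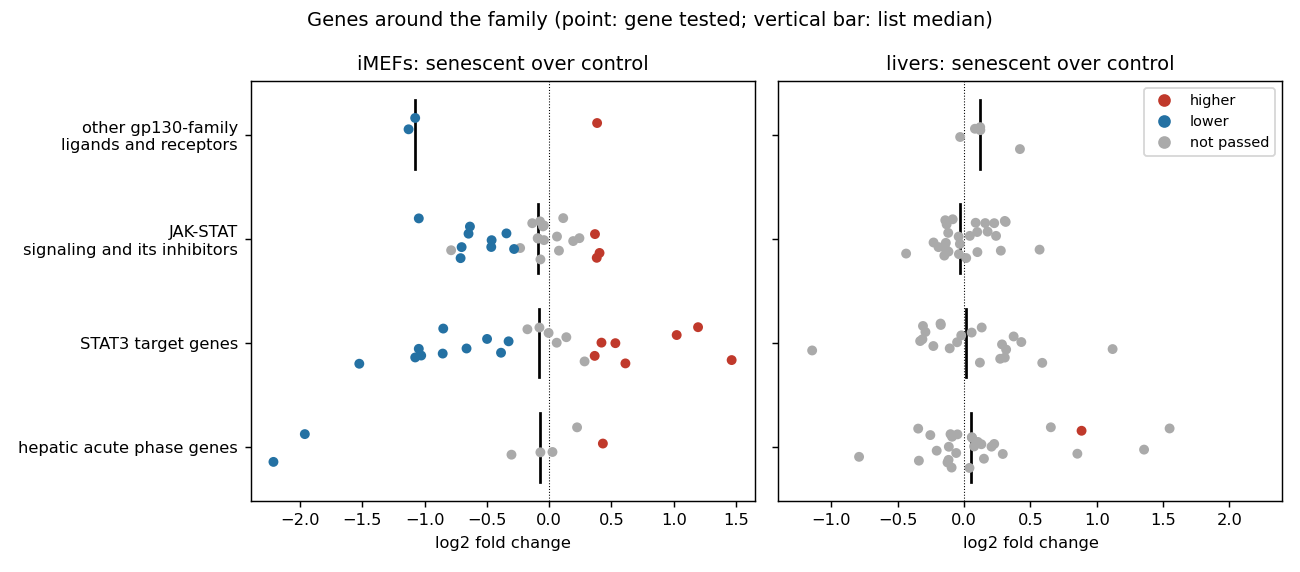
Log2 fold change, senescent over control, of each tested gene in 4 lists around the family, in iMEFs on the left and livers on the right, with higher calls in red, lower calls in blue, the others in grey and a bar at each list's median. In iMEFs the STAT3 targets spread to both sides of 0, and in livers Serpina3n is the only called gene.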

How the data were processed

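RNA from 6 iMEF cultures and 8 livers was sequenced as paired ends. The authors aligned reads with STAR to mm10 and counted them with featureCounts, and deposited raw read counts per gene. For versions, annotation release and strand setting nothing is stated in the sources used here. The normalized tables that the authors also deposited were not used.

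Each tissue was fitted separately with edgeR 4.0.16 (R 4.3.3), using filterByExpr (minimum count 10), TMM factors, the quasi-likelihood test, a prior count of 0.125 and Benjamini-Hochberg adjustment over all tested genes at a threshold of 0.05. A single model over 14 libraries gave the difference between tissues. CPM per kb used merged exon lengths from GENCODE M21, in which 54409 of 54532 identifiers were found. Counting intervals are exact 95% intervals of summed reads and cover counting error only. The scripts were tested on simulated counts.

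Columns of senescent samples carry names that differ from the sample titles and were matched by group and number. The members and gene lists were chosen with earlier results of these data known. The text names all 10 members, Terf2 and Cdkn1a, from each other list up to 4 genes with the smallest p in each tissue and genes called against most of the list, and 3 genes most like the leading member of each tissue. Junb, Cebpb and the markers Cd68, Ptprc, Dcn, Cdh1, Clec4g, Eng, Krt8 and Krt18 were chosen after their values were seen. Alternatives were DESeq2 1.42.0, limma-voom (limma 3.58.1), other size factors, no filter, a replicate block, a threshold of 0.01 and leaving out each library. Depth limits Il6, Il11 and Osm, which had at most 25 reads in any library. Some genes of the lists are counted but not reported by name here.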

Additional observations from a re-analysis of the deposited data

Results flagged for a closer look

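Lif in control livers was flagged because 1 library stood away from the others, replicate 4 at 0.111 CPM (2 reads) with the other 3 at 0. The test for a lone extreme library was run on 14 groups of livers, and chance flags about 1 in 20 such groups when values are continuous. That rate does not hold here, since 3 libraries at 0 with 1 above 0 are always flagged.

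The response of 4 members differed between livers and iMEFs by the test of the difference itself (edgeR quasi-likelihood test). On the log2 scale, livers minus iMEFs, Lif differed by 4.96 (adjusted p = 1.86e-04), Ctf1 by 1.01 (adjusted p = 0.00504), Il6st by 0.59 (adjusted p = 0.00605) and Stat3 by 0.56 (adjusted p = 0.0204). In livers, Lif passed the filter on low counts only through the senescent group, with 2 reads over the control livers. The tissues also differ in the Cre driver, the control, the time after Cre, immortalization and the mixture of cells, which cannot be told apart from the tissue. Control iMEFs received vehicle, whereas control livers received the Cre virus.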

How the results depend on the processing

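Over 342 recomputed values of 22 member results, 332 kept their direction and side of the threshold, 3 lost their call, 2 gained one and 5 turned their sign. The number of members called was 6 in iMEFs (5 to 7 with single libraries left out), 1 in livers under all 15 alternatives, and 4 for the difference between tissues (4 to 5). Lif in livers was called in all 15, with adjusted p up to 0.0170. These repeats use the same counts and are not separate evidence. Lif passed the filter on low counts there only through the senescent livers, so its p-values are descriptive. Over all genes, 5400 were called in iMEFs, 3385 at a threshold of 0.01, and 3792 to 5907 with single libraries left out. In livers 49 were called, against 139 with DESeq2, 130 with no filter, 30 at a threshold of 0.01 and 35 to 58 with single libraries left out.

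Signs turned for results that were not called. With single libraries left out, Osmr ranged over -0.23 to 0.010 in iMEFs (positive without senescent replicate 2) and -0.064 to 0.24 in livers (negative without senescent replicate 1), and Lifr over -0.26 to 0.027 in livers (positive without senescent replicate 3). Il6ra in livers ranged over -0.34 to 0.13, at 0.09, 0.11 and 0.13 without control replicate 3, senescent replicate 2 and senescent replicate 4, and Il11ra1 over -0.014 (without senescent replicate 4) to 0.23. The Clcf1 difference ranged over -0.35 to 0.14, at 0.14 without senescent iMEF replicate 3 and 0.12 without control liver replicate 4. The cause was not tested.

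Replicate numbers did not pair the samples (correlations of same-numbered deviations -0.18 to 0.00 in iMEFs and -0.09 to 0.26 in livers). With a replicate block, 4696 genes were called in iMEFs and 42 in livers, and 6 and 1 members.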
